A study of Arabidopsis thaliana with 4 samples.

Results

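In light-treated Arabidopsis thaliana seedlings, mRNA bound to polysomes was set against total mRNA, gene by gene. Members were the genes with an RPKM value (reads divided by gene length and by the size of the library) in both light libraries, 18584 of the 33602 entries of the deposited table. All plants were Col-0 wild type, grown in the dark for 4 days, and the light groups then received 4 h of white light. The 4 groups were total mRNA in darkness, total mRNA in light, polysomal mRNA in darkness and polysomal mRNA in light, with 1 library each, so that no difference has a replicate check and no p-value is given. The Pine Tree method gave the total RNA, whereas polysomal RNA came from a phenol and chloroform extraction, so fraction and extraction cannot be told apart, and whole seedlings were used, so that fewer cells of a type and less RNA per cell cannot be told apart either.

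A polysome is an mRNA that carries several ribosomes at once, and purified polysomes are used as an estimate of what a tissue is translating. A long coding sequence has room for more ribosomes than a short one, whereas RNAs that are not translated, such as microRNA precursors and many long noncoding RNAs, are not held by ribosomes in the same way. During de-etiolation, the change from growth in darkness to growth in light, a seedling builds its photosynthetic apparatus and its stem stops elongating, and both changes call for new proteins.

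The light libraries held 91087442 listed reads for total mRNA, with a median of 1465 reads a gene, and 61006149 for polysomal mRNA, with a median of 750. Their 10 most abundant genes took 4.77% of the reads in total mRNA and 9.27% in polysomal mRNA. A floor of a mean of 1 RPKM over both light libraries left 17469 genes. Of the 17333 that the RefSeq annotation lists, 5647 overlap another gene, and for 3633 of the 17469 genes the polysomal read number was not whole. The sources used here do not state strand or how shared reads were assigned, so values of overlapping genes and close paralogs are uncertain. Below, overlap is marked for the named ends of the length classes, but for members of gene lists only in part. Among 8 root markers listed, 3 passed the floor, and SCR, which specifies the root endodermis, had 23.5 RPKM in total and 14.7 in polysomal mRNA.

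Long genes had lower polysomal levels, relative to total mRNA, than short ones. On the scale log2 of polysomal over total RPKM, each value plus 1, 2261 genes were at least 2-fold higher in polysomal mRNA (12.9% of those tested) and 3773 at least 2-fold lower (21.6%), 34.5% in either direction, and the median gene was at -0.31. The added 1 understates the ratios of genes with low values. Genes of 0.5 to 1 kb had a median ratio of 1.01 (2758 genes), genes of 1 to 1.5 kb 0.17 (4364 genes), and genes of 1.5 to 2 kb -0.39 (4432 genes). The medians of the longer classes were -0.81 at 2 to 3 kb (3983 genes), -1.25 at 3 to 5 kb (1541 genes) and -1.66 at 5 kb and over (239 genes). Genes under 0.5 kb, which were few (152), stood at 0.55. This class mixes protein-coding and noncoding genes, and its protein-coding genes with an annotated leader had medians above the class median. For 32 without an ATG upstream of the start codon the median was 1.22 above it (1.38 on reads). For 37 with such an ATG it was 0.94 above (1.24 on reads). In the class of 0.5 to 1 kb 1399 genes were at least 2-fold higher and 90 at least 2-fold lower, whereas at 5 kb and over 2 were higher and 211 lower. Across genes, which are not independent replicates, Spearman's rho of the ratio with length was -0.70.

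**Figure D1:**
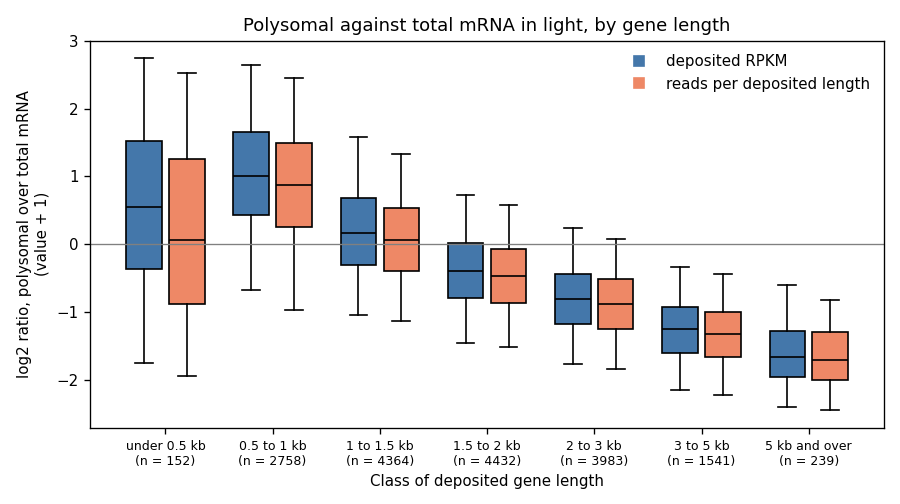
Box plots of the log2 ratio of polysomal over total mRNA in light (y axis) in 7 classes of deposited gene length (x axis), on deposited RPKM and on reads divided by the deposited length; boxes span the quartiles, the line is the median and whiskers run from the 5th to the 95th percentile of genes. On the RPKM scale the class medians fall from 1.01 at 0.5 to 1 kb to -1.66 at 5 kb and over.

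The split between higher and lower genes depended on where equal was set. With ratios centred on the median of genes of at least 5 RPKM, 3077 genes were at least 2-fold higher and 2322 lower, 57.0% higher among those counted against 37.5% in the main comparison. With the summed RPKM times length of nuclear genes set equal, 1776 were higher and 4837 lower, which is 26.9% higher. With 5 in place of 1 added to each value, 1601 were higher and 1729 lower, which is 48.1% higher. A gene was therefore also given its relative ratio, the log2 ratio minus the median of its length class, which removes nearly all of the relation with length (rho -0.06). By the relative ratio, 1502 genes stood at least 2-fold above their class (8.6%) and 1260 at least 2-fold below it (7.21%).

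The deposited RPKM of the 2 fractions did not rest on the same gene length. Reads and RPKM give a length only up to a constant for each library, so implied lengths were scaled to the listed ones. In total mRNA the median gene with at least 100 reads was set to its listed length. In each polysomal library this was done with genes over 3 kb with at least 100 reads. In total mRNA, reads and RPKM then followed the length listed beside each gene, to within 99.4% to 100.5% of it from the 1st to the 99th percentile. In polysomal mRNA the length implied by reads and RPKM was at the median 98.4% of the listed length, but in 1239 of 16306 genes with at least 100 reads in each library (7.60%) it was under 80%, and the lowest was 14.1%. The implied length in the dark polysomal library was the same to within 1% in 99.9% of these genes. Among the genes of this set at least 2-fold above their class, 430 of 1443 (29.8%) had an implied length under 80%, against 57 of 971 (5.87%) of those at least 2-fold below. If polysomal reads were counted over the shorter stretch only, a ratio of reads per listed length is too low for such genes, and if they were counted over the listed length, the RPKM ratio is too high. Which holds is not stated in the labels or files, so the main results are given on both scales, as the RPKM ratio and as the read ratio, which divides the reads of both libraries by the listed length.

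**Figure D2:**
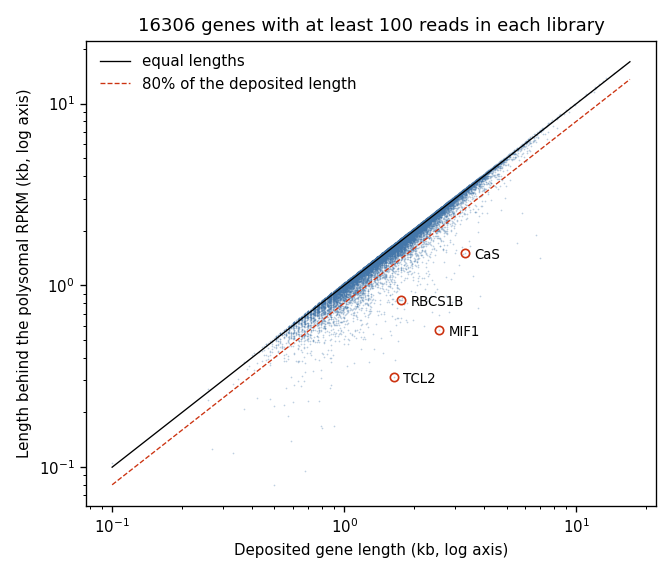
Gene length implied by the deposited polysomal reads and RPKM (y axis, kb, log axis) against the length listed in the table (x axis, kb, log axis), 1 point for each of 16306 genes with at least 100 reads in each light library; the solid line marks equal lengths and the dashed line 80%. Implied lengths are scaled so that genes over 3 kb have their listed length at the median. Most genes lie on or just under the solid line, and 1239 lie under the dashed one, among them MIF1, RBCS1B, TCL2 and CaS.

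On the read ratio, 1830 genes were at least 2-fold higher in polysomal mRNA (10.5%) and 4282 lower (24.5%), 35% in either direction, with a median of -0.40, and rho with length was -0.69. The class medians ran from 0.87 at 0.5 to 1 kb through 0.07, -0.47, -0.88 and -1.33 to -1.71 at 5 kb and over, close to those on RPKM, except under 0.5 kb, where the median was 0.06 in place of 0.55. Relative to class, 1345 genes stood at least 2-fold above (7.7%) and 1262 at least 2-fold below (7.22%). On both scales together, 1233 genes were above and 1138 below.

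Only 7 genes under 0.5 kb were eligible to be named, and their class median is that of a mix of protein-coding and noncoding genes. Among these 7, OEP7, which encodes a small protein of the chloroplast outer envelope, lay highest above its class. It had 2.28 RPKM in total and 42.1 in polysomal mRNA, an 18.5-fold difference with a 95% interval of 14.9 to 23.2, and its relative ratio was 3.17, or 3.29 on reads. The intervals here are exact binomial ones on the reads of both libraries and cover counting error only, since PCR copies were not marked. CPL3, a MYB-type repressor of trichome formation, had 3.35 RPKM in total and 23.3 in polysomal mRNA, and LCR67, a cysteine-rich peptide of the defensin kind, 5.44 and 36.8. SCRL7, another cysteine-rich peptide, stood at the other end with 36.5 RPKM in total and 19.5 in polysomal mRNA, although its gene overlaps another and its polysomal reads were not whole. CDT1, the next lowest, was above its class, with relative ratios of 1.00 on RPKM and 1.21 on reads.

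At 0.5 to 1 kb the ends were far apart. MLP423, of the major latex protein family, had 7.27 RPKM in total and 149.7 in polysomal mRNA, 20.6-fold with an interval of 19.0 to 22.3. PSAE-2, a stromal subunit of photosystem I, had 96.8 and 1390.0 RPKM, but it overlaps another gene and its polysomal reads were not whole. AGP12, a cell surface arabinogalactan peptide, had 141.1 and 2126 RPKM. Its polysomal RPKM rests on 61.7% of the listed length, and its relative ratio was 2.89 on RPKM and 2.29 on reads. HIS1-3, a linker histone variant known to be induced by drought, went the other way with 74.1 RPKM in total and 16.4 in polysomal mRNA, and its relative ratio was -3.12. TPX2, a thioredoxin-dependent peroxidase, had 271.0 and 59.9 RPKM, and it too overlaps another gene and has polysomal reads that were not whole.

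The lowest named genes of 1 to 1.5 kb encode regulators known from stress responses. EBP, an ethylene response factor (chr3:5705541-5707084 in TAIR10.1, plus strand), had 279.2 RPKM in total and 20.4 in polysomal mRNA. Its polysomal level was 0.0731 of the total level, with an interval of 0.0693 to 0.0771, and its relative ratio was -3.88, or -3.90 on reads. DI19, a drought-induced zinc finger protein, was among the abundant mRNAs of the total fraction with 914.8 RPKM and had 97.0 in polysomal mRNA, a relative ratio of -3.40. At the upper end stood PSB27, an assembly factor of photosystem II, with 124.2 and 1369 RPKM, and PGR5, which acts in cyclic electron flow around photosystem I, with 67.5 and 655.9 RPKM. For both the polysomal RPKM rests on a shorter length (59.9% and 69.9% of the listed one), and on reads their relative ratios were 2.60 and 2.64 in place of 3.28 and 3.09.

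Both ends were also far apart among longer genes. RBCS1B, a small subunit gene of Rubisco, had 351.3 RPKM in total and 4561 in polysomal mRNA, with a relative ratio of 4.09 that became 3.05 on reads. RPL23AA, a protein of the large ribosomal subunit, had 65.7 and 368.3 RPKM and relative ratios of 2.86 and 2.94. In the same class of 1.5 to 2 kb, ENODL1, an early nodulin-like protein, had 22.5 RPKM in total and 1.42 in polysomal mRNA, and CEP2, a papain-type cysteine endopeptidase, 71.4 and 8.56. The polysomal RPKM of RBCS1B rests on 47.5% of the listed length and that of CEP2 on 65.4%.

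ASN1, the asparagine synthetase that dark and sugar shortage induce, was lowest at 2 to 3 kb (chr3:17437840-17441431 in TAIR10.1, minus strand). It had 191.7 RPKM in total and 9.51 in polysomal mRNA, so that the polysomal level was 0.0496 of the total level (interval 0.0471 to 0.0523). In darkness its levels were 1015 and 250.2 RPKM, and its relative read ratio was -1.46 there against -3.43 in light. HSD2, a hydroxysteroid dehydrogenase whose gene lies on chromosome 3, as ASN1 does, had 51.3 and 3.47 RPKM in light. HDA3, a plant-type histone deacetylase, stood high in this class with 6.48 and 45.3 RPKM and a relative read ratio of 2.58, and so did LSH9, a protein of the LIGHT-DEPENDENT SHORT HYPOCOTYLS family, with 1.67 and 20.3 RPKM and 2.32. MIF1, a mini zinc finger protein, headed the class on RPKM with a relative ratio of 4.35, which on reads was 2.31, its polysomal RPKM resting on 22.1% of the listed length. For HSD2, HDA3 and LSH9 the polysomal RPKM rests on 63.2%, 52.7% and 31.6% of it. ASN1, HDA3, LSH9 and MIF1 overlap another gene.

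At 3 to 5 kb, BGAL1, a cell wall beta-galactosidase, had 719.0 RPKM in total and 71.1 in polysomal mRNA, with relative ratios of -2.07 and -2.06. The delta subunit of the AP-3 adaptor complex, delta-ADR, was above its class on both scales at 2.88 and 2.91, with 12.8 RPKM in total and 41.7 in polysomal mRNA. CaS, the thylakoid calcium-sensing protein, had 48.4 and 161.3 RPKM and relative ratios of 2.97 and 1.87. Of the 239 genes of 5 kb and over, 211 were at least 2-fold lower in polysomal mRNA, and even the highest of those eligible to be named remained below equality. TOC159, the receptor of the chloroplast import machinery, had 63.2 RPKM in total and 35.7 in polysomal mRNA, 0.565 of the total level (interval 0.553 to 0.578), and a relative ratio of 0.86. XIK, a myosin that moves organelles along actin, had 46.7 and 5.27 RPKM, and CIP1, a protein that binds the photomorphogenesis repressor COP1, 44.8 and 4.07. Overlap with another gene holds for delta-ADR, TOC159, XIK and CIP1. The polysomal RPKM of CaS rests on 45.3% of the listed length.

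The translation machinery differed within itself. The list of cytosolic ribosomal proteins, matched by the wording of the annotated product, is partial and leaves out RPL23AA, for example. Of its 69 genes tested, 43 stood at least 2-fold above their length class and none below on either scale, and the median relative ratio was 1.37 (1.36 on reads), beside medians of 0 for all genes. The background shares are those given above, 8.6% above and 7.21% below on RPKM and 7.7% and 7.22% on reads. Summed over the list, 4070 RPKM in total mRNA stood beside 18321 in polysomal mRNA. The member emb2386, a protein of the large subunit, had 170.9 and 654.6 RPKM and a relative ratio of 1.76, and STV1, a large subunit protein known for its part in translation after upstream reading frames, had 86.9 and 354.4 RPKM and 1.00. The lowest with a symbol and enough reads, RPL18AA, had 42.3 and 48.4 RPKM and 0.58. Of the 69, polysomal reads were not whole for 13.

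Factors that act on the ribosome lay nearer to their class. For 24 initiation and elongation factors the median relative ratio was 0.16, with 2 members at least 2-fold above and none below. EF1A2, an elongation factor that brings tRNA to the ribosome, had 249.4 RPKM in total and 228.1 in polysomal mRNA, and eIFiso4G1, a scaffold of the cap-binding complex, 68.7 and 16.1. LSP1, the cap-binding protein eIFiso4E, stood highest with 22.1 and 60.4 RPKM and a relative ratio of 1.24. Among 36 proteasome subunits, which take part in protein breakdown, the median was 0.52 (0.50 on reads), and 2 were at least 2-fold above and none below; PBA1, a catalytic core subunit, had 40.3 and 106.3 RPKM.

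Nuclear genes of the photosynthetic apparatus were above their class nearly throughout. Of 23 photosystem subunits, 18 were at least 2-fold above and none below on either scale, with a median of 1.47 (1.39 on reads) and summed levels of 15034 RPKM in total and 64608 in polysomal mRNA. PSAE-2 was the highest, PSBW, a small photosystem II protein, lay at the middle with 712.2 and 3984 RPKM, and PSAG, a photosystem I subunit, was the lowest with 1118 and 2530 RPKM and a relative ratio of 0.16. Antenna proteins, which bind chlorophyll and pass on light energy, had a median of 1.36 (1.27 on reads) over 20 members, of which 12 were at least 2-fold above on RPKM and 11 on reads. LHCB2.3, of the major antenna of photosystem II, had 202.0 and 1070 RPKM, and LHCA4, of the photosystem I antenna, 1870 and 2517.

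The 4 small subunit genes of Rubisco, the carbon-fixing enzyme, were all at least 2-fold above their class on both scales. RBCS1A had 3387 RPKM in total and 18590 in polysomal mRNA, RBCS3B 2751 and 19610, and RBCS2B 889.1 and 4618. These genes are close paralogs, their polysomal reads were not whole, and for 3 of the 4 the polysomal RPKM rests on under 80% of the listed length, so the split between members is uncertain. Other Calvin cycle enzymes lay closer to their class, with a median of 0.65 (0.62 on reads) and 3 of 15 at least 2-fold above. FBA1, a plastid aldolase, was the highest with 322.3 and 679.0 RPKM, and the triosephosphate isomerase TIM the lowest with 157.4 and 165.9. Over 25 chlorophyll synthesis genes the median was 0.29 (0.35 on reads). The 3 protochlorophyllide oxidoreductases belong here, and POR C had 48.0 and 118.6 RPKM and relative ratios of 2.09 and 1.44, while GSA1, an early enzyme of the pathway, had 50.9 and 28.0 RPKM.

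Plastid ribosomal proteins made in the nucleus had a median of 0.89 (0.81 on reads) over 10 members, with 4 at least 2-fold above on RPKM and 3 on reads. PSRP5, a plastid-specific ribosomal protein, had 235.0 and 1619 RPKM, and RPL3P 21.7 and 12.7.

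Genes of the cell surface were mixed. Of 24 arabinogalactan proteins and peptides, which are heavily glycosylated wall proteins, 11 were at least 2-fold above their class and 2 below, with a median of 0.96 (0.87 on reads). AGP21 came close to AGP12 with 166.4 and 2424 RPKM, whereas AGP22 had 38.9 RPKM in total and 14.5 in polysomal mRNA and a relative ratio of -2.38. For 8 of the 24 the polysomal RPKM rests on under 80% of the listed length. Of 4 lipid transfer proteins, which carry cuticle lipids, 3 were at least 2-fold above their class and 1 below on both scales. LTP2 had 309.4 and 2384 RPKM and LTP6 2.30 and 30.2, whereas LTP3, chosen after its value was seen, had 9.79 and 3.51 and a relative ratio of -2.27. Aquaporins, the water channels of the plasma and vacuolar membranes, had a median of 0.36 (0.32 on reads) over 18 members. GAMMA-TIP, of the vacuolar membrane, had 489.9 and 2367 RPKM, and PIP1A, of the plasma membrane, 1073 and 820.9. Alpha expansins, which loosen the wall, were centred on their class at -0.03 over 14 members, and tubulins at -0.04 over 15.

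Core histones, whose genes are short and mostly without introns, had a median of 1.23 (1.04 on reads) over 39 members, with 22 at least 2-fold above on RPKM, 21 on reads and 1 below on both. HTA10, an H2A gene, had 54.2 RPKM in total and 438.3 in polysomal mRNA, a relative ratio of 1.98, and HTA6, another H2A gene, 16.0 and 157.1. HTA9, which encodes the H2A.Z variant, was the member below, with 140.0 and 130.0 RPKM and -1.12. The counting intervals of the folds of HTA9 and HTA6, 0.901 to 0.958 and 9.33 to 10.4, lie far apart.

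**Figure D3:**
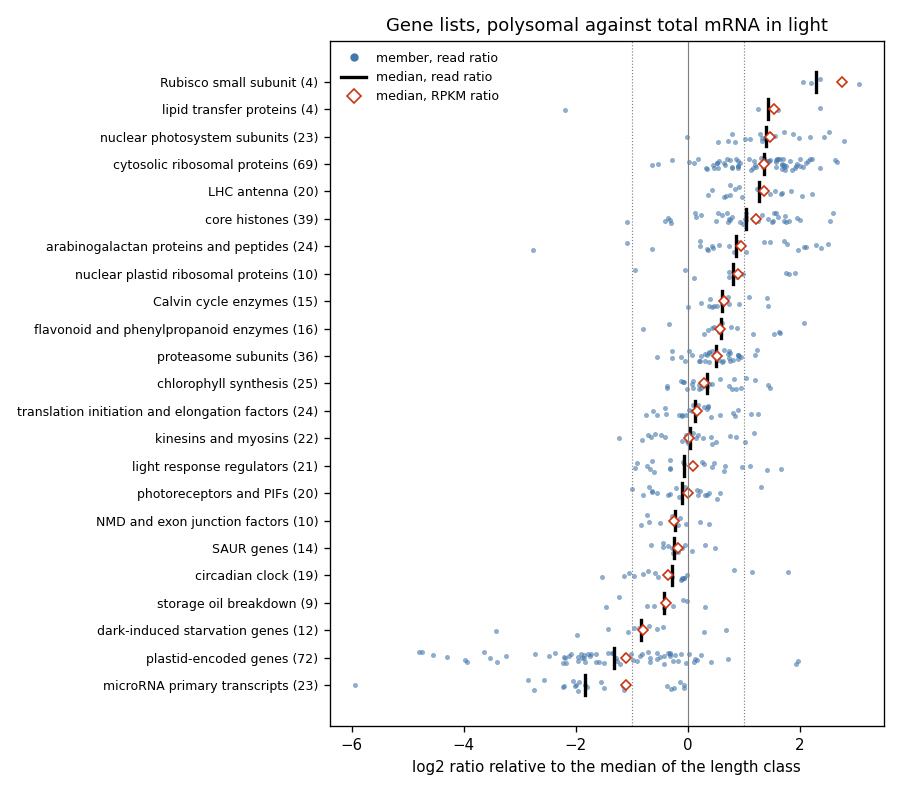
Ratio of polysomal over total mRNA in light relative to the median of each gene's length class (x axis, log2) for 23 gene lists (y axis, number of members tested in brackets); points are members and bars medians on the read ratio, diamonds are medians on the RPKM ratio, and dotted lines mark a 2-fold difference. Rubisco small subunits, photosystem subunits and cytosolic ribosomal proteins lie to the right, and plastid-encoded genes and microRNA transcripts to the left.

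Several regulators were lower in polysomal mRNA before length was considered and not after. For 20 photoreceptors and PIF factors, the bHLH proteins through which phytochromes act, the median RPKM ratio was -1.01 and 10 were at least 2-fold lower. Relative to class the median was 0.00 (-0.10 on reads), 1 was above and none below. PHYA, the far-red photoreceptor, had 100.6 and 39.7 RPKM and a relative ratio of -0.06. For 10 factors of nonsense-mediated decay and the exon junction complex the median ratio was -1.31 and the relative one -0.24, with none of 10 past 2-fold. Among 22 kinesins and myosins the 2 values were -1.17 and 0.02. SR proteins, which guide splice site choice, had medians of -0.12 and 0.09 over 20 members.

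Light response regulators were spread around their class, with a median of 0.10 (-0.06 on reads) over 21 members, of which 4 were at least 2-fold above on RPKM, 3 on reads and none below. HY5, a bZIP factor that promotes greening, had 39.5 RPKM in total and 165.1 in polysomal mRNA, and its relative ratio was 2.43 on RPKM and 1.42 on reads. GLK2, a regulator of chloroplast genes, had 58.5 and 100.7 RPKM and 1.16. COP1 and SPA1 belong to a complex that targets such regulators for breakdown, and neither was past 2-fold. COP1 had 28.0 and 9.39 RPKM and -0.67, and SPA1 89.0 and 18.3 RPKM and -0.97. Of 19 clock genes, 4 were at least 2-fold below their class on RPKM and 3 on reads, and 2 were above. PRR9, a morning repressor of the clock, had 20.6 and 4.50 RPKM and -1.58, and TCP11, the highest with a mean of at least 10 RPKM, 22.2 and 70.6 RPKM and 1.46. LHY, a morning MYB factor of the core clock, was higher still at 1.73, with 4.88 and 7.15 RPKM, and was chosen after its value was seen.

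Of 16 enzymes of flavonoid synthesis and of the general phenylpropanoid pathway that feeds it, 5 were at least 2-fold above their class and none below, with a median of 0.58 (0.60 on reads). The members past 2-fold included F3H and TT4, enzymes of the early flavonoid steps. F3H had 12.5 RPKM in total and 40.9 in polysomal mRNA, and TT4, chalcone synthase, 91.4 and 229.2. C4H, of the general phenylpropanoid pathway, was lowest with 287.3 and 126.1 RPKM and a relative ratio of -0.79.

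Genes known to be induced by darkness and sugar shortage were mostly below their class. Of 12, 5 were at least 2-fold below on RPKM and 4 on reads, with medians of -0.79 and -0.84; on RPKM 1 was above. ASN1 was the lowest. DIN2, a beta-glucosidase, had 119.6 RPKM in total and 23.4 in polysomal mRNA, and BXL1, a beta-xylosidase, 1019 and 285.9. DRM2, a dormancy-associated protein, was the exception with 513.1 and 1834 RPKM, a relative ratio of 1.66 that became 0.68 on reads. Genes of storage oil breakdown had a median of -0.38 (-0.42 on reads) over 9 members, of which 2 were at least 2-fold below their class and none above. Heat shock factors and chaperones had -0.27 (-0.35 on reads) over 15, with HSP90.1 lowest at 130.1 and 29.7 RPKM.

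Seed storage mRNAs that remain in young seedlings went in both directions. Of 5 tested, 2 were at least 2-fold above their class and 1 below, the lowest at a relative ratio of -1.89. CRA1, a 12S cruciferin, had 13.2 RPKM in total and 45.3 in polysomal mRNA, and CRU3 9.20 and 31.8. The oleosin genes OLEO1 and OLEO2, which lie under the limits for naming, had nearly equal levels in both fractions. They lay at -0.98 and -0.95 relative to their class.

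Transcripts of organelle genomes and noncoding RNAs had medians below their class, and the counts past 2-fold differed between kinds. Of 72 plastid-encoded genes tested, 39 were at least 2-fold below their class on RPKM and 42 on reads, with medians of -1.10 and -1.31, and 2 were above. Among the 30 whose polysomal RPKM rests on at least 80% of the listed length, 14 were below on RPKM and 10 on reads, with medians of -0.84 and -0.58. The lowest, ATCG00900, had 22.5 RPKM in total and 0.843 in polysomal mRNA, and the highest, ATCG00920, 29.7 and 89.5. Plastid transcripts took 0.149% of the listed reads in total mRNA and 0.159% in polysomal mRNA. Among 79 genes annotated as ncRNA, 39 were at least 2-fold below their class on RPKM and 40 on reads, while 4 were above on RPKM and 1 on reads. Without regard to class, 23 of the 79 were at least 2-fold lower on RPKM and 27 on reads, and 6 and 3 were higher. Their median ratios were -0.46 and -0.64, and of all genes 21.6% and 24.5% were lower. Of 20 snoRNAs 14 were below on RPKM and 17 on reads, but only 1 of the 20 has a polysomal RPKM resting on at least 80% of the listed length, and that one was not below on reads. Without regard to class, 8 of the 20 were at least 2-fold lower on RPKM and 17 on reads. Of 69 lncRNA genes, 18 were below on RPKM and 20 on reads, 5 and 4 were above, and the medians were -0.40 and -0.44. Of 8 mitochondria-encoded genes 3 were below on RPKM and 4 on reads. GUT15, a noncoding RNA known for fast decay, had 121.4 RPKM in total and 25.2 in polysomal mRNA and relative ratios of -1.83 and -1.88. TAS1B and TAS2, precursors of small interfering RNAs, had relative ratios of -1.89 and -1.02 on RPKM, whereas TAS3 had 0.81 on RPKM and 0.14 on reads. These noncoding genes were chosen after their values were seen.

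MicroRNA primary transcripts are the capped and polyadenylated precursors from which nuclear processing cuts the mature microRNA. Of 326 such loci, 33 had values in both libraries and 23 passed the floor. None of the 23 was at least 2-fold above its class, 12 were below on RPKM and 17 on reads, and the medians were -1.10 and -1.83. Before length was considered, 10 were at least 2-fold lower on RPKM and 15 on reads, none was higher, and the medians were -0.93 and -1.14. The mature sequences of the members described here, from RefSeq (TAIR10.1), show which small RNA each precursor carries, with the seed (bases 2 to 8) in capitals.
ath-miR156f-5p: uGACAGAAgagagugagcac
ath-miR163: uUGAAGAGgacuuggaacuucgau
ath-miR160b: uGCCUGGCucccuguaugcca
ath-miR168a-5p: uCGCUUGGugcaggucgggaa
ath-miR822-5p: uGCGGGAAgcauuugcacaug
ath-miR414: uCAUCUUCaucaucaucguca
The sequence of miR156f-5p is also that of miR156a-5p and miR156c-5p, and the seed GACAGAA was shared by 3 tested loci. That of miR160b is also the 5p product of the MIR160c locus, with the seed GCCUGGC in 2 loci. In TAIR10.1 the printed copies lie at chr5:9136126-9136145 (miR156f-5p, plus strand), chr1:24884359-24884382 (miR163, plus strand), chr4:9888986-9889006 (miR160b, plus strand), chr4:10578652-10578672 (miR168a-5p, plus strand), chr5:897287-897307 (miR822-5p, minus strand) and chr1:25137519-25137539 (miR414, minus strand).

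MIR156f, a precursor of the microRNA that holds back the change from juvenile to adult leaves, was the lowest locus. It had 217.8 RPKM in total and 2.71 in polysomal mRNA, from 1797 and 15 reads, and a relative ratio of -6.43, or -5.94 on reads. Scaled to the listed reads of each library, its polysomal reads were 0.0125 of those in total mRNA, with an interval of 0.00696 to 0.0206. The listed length is only 0.09 kb, and the locus overlaps another gene. MIR156c, of the same family, had 30.3 and 10.1 RPKM and relative ratios of -1.66 and -1.96.

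MIR163, which gives a 24-base microRNA, had 46.4 RPKM in total and 18.8 in polysomal mRNA, with -1.43 on RPKM and -1.99 on reads. MIR822 had 9.43 and 1.93 RPKM, with -2.85 on reads. MIR414 lay at its class with 19.4 and 37.3 RPKM and -0.10. For 16 of the 23 loci the polysomal RPKM rests on under 80% of the listed length, and for MIR156a, MIR160b, MIR160c and MIR168a on under 10%. At MIR156a the 2 scales differ most, 0.07 on RPKM against -2.04 on reads (3048 reads in total and 20 in polysomal mRNA). The 7 loci at 80% or over had medians of -0.80 on RPKM and -0.30 on reads, and 3 of them were at least 2-fold below on either scale. Except for MIR156c, MIR163 and MIR414, the microRNA loci given here lie under the limits for naming and were chosen after their values were seen.

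The same comparison in darkness came from the other 2 libraries and so shares none with light, although both polysomal libraries share an extraction method, as do both total ones. Across the 17469 genes Pearson's r of the relative ratios was 0.85 on either scale, and within length classes it ran from 0.84 to 0.90 on RPKM and from 0.84 to 0.88 on reads. On reads, 971 genes at least 2-fold above their class in light were so in darkness too, 72.2% of those above in light and 58.2% of the 1669 above in darkness (9.55% of all tested). Of those below, 937 were shared, 74.2% of the light set and 60.6% of the 1546 in darkness (8.85%). On RPKM the shares in darkness were 10.7% above and 8.83% below. Another 2 genes were above in light and below in darkness, and 5 the reverse.

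**Figure D4:**
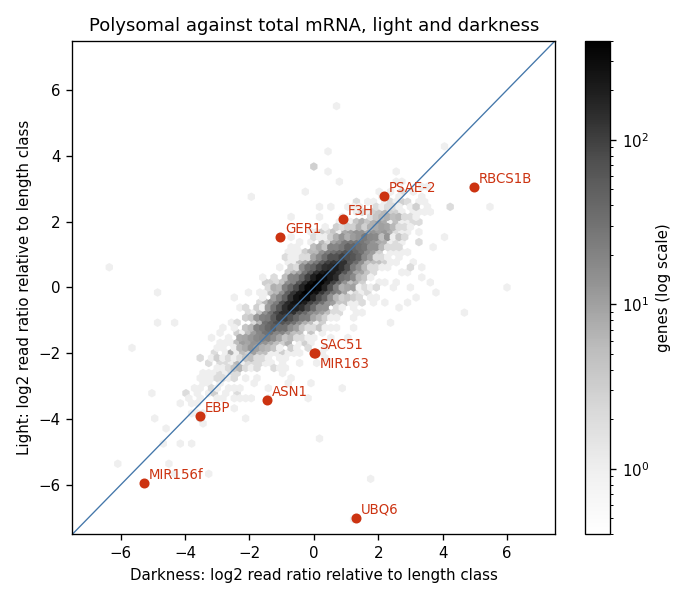
Read ratio of polysomal over total mRNA relative to length class (log2) in light (y axis) against darkness (x axis) for 17469 genes; shading is the number of genes on a log scale, the line marks equal values and 10 genes are marked by name. Most genes lie along the line, and ASN1, SAC51, MIR163 and UBQ6 lie below it.

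Some lists had unequal medians in the conditions, and the difference between conditions was not tested. Calvin cycle enzymes had a median relative read ratio of 0.62 in light and 1.25 in darkness, and FBA1 stood at 1.44 and 3.23. SAUR genes, small auxin-induced growth genes, had -0.23 in light and 0.80 in darkness. The starvation list had -0.84 in light and -0.18 in darkness. Plastid ribosomal proteins of the nucleus had 0.81 and 1.32, and Rubisco small subunits 2.29 and 3.34. Cytosolic ribosomal proteins had 1.36 in light and 1.02 in darkness. F3H had 2.09 in light and 0.89 in darkness, where its total level was 0.16 RPKM.

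Sequence features differed between the ends of the ratio, by amounts that varied with length class. Protein-coding genes in the highest 10% of the read ratio within their length class had a median coding length of 927 bases, against 1176 in the lowest 10%. In each class from 0.5 kb up, the highest 10% also had the shorter median listed length. It was 0.70 against 0.86 kb at 0.5 to 1 kb, and 2.23 against 2.49 kb at 2 to 3 kb. The gap in coding length was not separated from this remaining relation with length, and the features below also compare genes of unequal length. The share of G or C at the third codon position was 44.1% and 41.2%, with 41.7% between. An A at position -3 before the start codon, the favoured base there in plants, was present in 51.3% of the highest 10%, 46.8% of the middle genes and 47.1% of the lowest 10%, and a G at position +4 in 61.0%, 56.3% and 57.3%. Genes without introns made up 14.2% of the highest and 19.0% of the lowest 10%. The gaps were wider at 0.5 to 1 kb, where an A at position -3 was present in 62.5% of the highest and 45.2% of the lowest 10%, and genes without introns made up 19.7% and 41.4%. In that class the share of G or C at the third codon position was 50.5% and 42.7%. At 3 to 5 kb genes without introns differed the other way, with 8.55% of the highest and 1.99% of the lowest 10%. An ATG upstream of the start codon in the annotated leader was found in 10530 genes and absent from 6082, and both medians of the relative read ratio rounded to 0.01. By class the medians differed in both directions, at 0.5 to 1 kb 0.11 without and 0.01 with such an ATG, and at 2 to 3 kb -0.04 without and 0.02 with it. Over all classes it was present in 63.5% of the highest and 61.3% of the lowest 10%.

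Some leaders hold a short upstream reading frame with a conserved peptide, and such frames are known to hold back translation of the main frame. Of the genes listed for one, 14 were tested. Their median relative ratio was 0.26 (0.33 on reads), with 3 at least 2-fold above their class and 1 below. SAMDC, which makes decarboxylated S-adenosylmethionine for polyamines, had 662.7 RPKM in total and 956.6 in polysomal mRNA and a relative ratio of 1.34. SAC51, a bHLH protein that polyamines act on through its leader, had 49.4 and 5.92 RPKM and relative RPKM ratios of -2.06 in light and -0.05 in darkness. In 7 of the 14 polysomal reads were not whole, and SAC51 is among them.

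Most retained introns with values in both fractions were less frequent in polysomal than in total mRNA of the light-treated seedlings. The deposited splicing tables give, for each event, the percent of reads that carry it. For total mRNA 13845 retained introns are listed, of which 4330 also have polysomal values. How these were selected is not known here, so the shares hold for this subset only. Of 4330 retained introns with values in both fractions, 3157 had a lower percent in polysomal mRNA (72.9%) and 1164 a higher one (26.9%), and the medians were 27.1% in total and 21.1% in polysomal mRNA. At least 2-fold lower were 1265 (29.2%) and at least 2-fold higher 391 (9.03%). In darkness 2484 of the 4330 were lower (57.4%). Events of alternative donor or acceptor sites were split evenly in light, 1395 lower and 1396 higher of 2802 (49.8% each). Cryptic exons were more often higher, 169 of 267 (63.3%) against 96 lower (36%), and of 130 skipped exons 66 were lower (50.8%) and 64 higher (49.2%), 8 of them at least 2-fold lower (6.15%) and 13 at least 2-fold higher (10%).

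The bins used here rest on the percent in total mRNA, which is itself 1 side of the comparison, so alternative donor and acceptor sites binned in the same way are given beside the introns. Among events at 10% to 20% in total mRNA, 74.2% of retained introns and 49.4% of alternative sites were lower in polysomal mRNA, and at 80% to 100% the shares were 84.1% and 69.3%. At 0 to 5% the direction was the other, with 41.0% of 244 retained introns lower and 58.6% higher in polysomal mRNA, and 38.1% of the 244 at least 2-fold higher. Of 133 alternative sites in that bin, 24 were lower. Retained introns had the larger share of lower events in all 6 bins. The number of polysomal reads behind each percent is not known, so no interval is given for it.

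**Figure D5:**
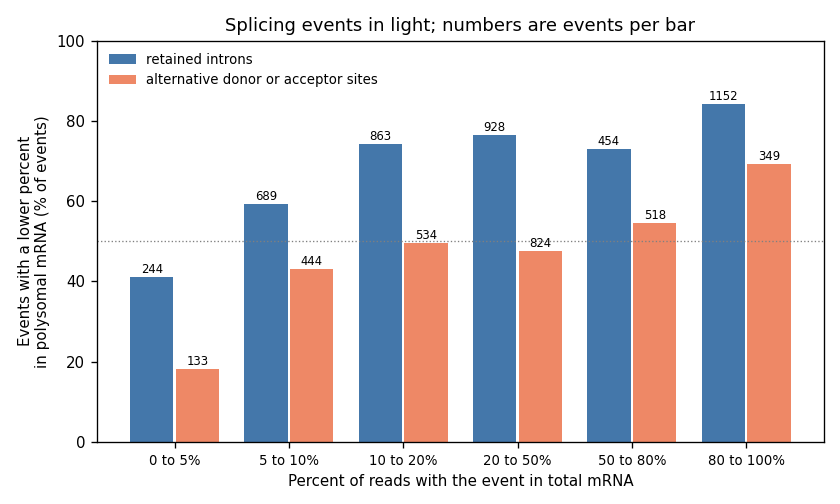
Share of splicing events with a lower percent of event reads in polysomal than in total mRNA in light (y axis, % of events) by the percent in total mRNA (x axis), for retained introns and for alternative donor or acceptor sites; numbers above the bars are events. Retained introns are above alternative sites in each of 6 bins, for example 74.2% against 49.4% at 10 to 20%.

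Single introns show the range. The following were chosen after their values were seen, as the ends of 479 introns with at least 100 reads and 20% retention in total mRNA. The read limit holds for total mRNA in light only. Polysomal percents have no known read number and may rest on few reads, so these extremes and their light and dark differences are uncertain. Intron 1 of FHY3, a transcription factor of phytochrome A signalling, was retained in 97.2% of 217 reads in total mRNA (Wilson interval 94.1% to 98.7%) and 33.3% in polysomal mRNA, and in 97.0% and 71.4% in darkness. Introns 6, 7 and 8 of MLO3, a membrane protein of the MLO family, were at 77.6%, 76.5% and 78.1% in total and 17.6%, 16.7% and 23.1% in polysomal mRNA. Intron 6 of HEN4, a KH-domain RNA-binding protein, was at 69.1% and 13.5%. In the other direction, intron 1 of FIP1[V], a polyadenylation factor, was at 29.3% in total and 96.6% in polysomal mRNA, with 35.4% and 98.1% in darkness. Intron 1 of CDF1, a repressor of flowering, was at 22.1% and 75% in light but at 66.7% and 33.3% in darkness.

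At the level of whole genes the differences were small. The 3114 tested genes with a retained intron listed for both fractions had a median relative read ratio of -0.05. The 816 of them with an intron retained in 80% of reads or more had -0.09. The 7285 protein-coding genes with several exons and no listed retained intron had 0.06. Of the 3114, 175 were at least 2-fold above their class and 237 below, and of the 7285, 677 and 405. Among all 17469 genes, 1502 (8.6%) were above and 1260 (7.21%) below on RPKM, and 1345 (7.7%) and 1262 (7.22%) on reads. The share below among the 3114 was thus near that of all genes, and the share above was smaller than among all genes. Among the 7285 the share above was larger than among all genes and the share below smaller.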

How the data were processed

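Per the labels' protocols, an Oligotex kit was used to isolate mRNA, and 1 standard Illumina library was sequenced for each of 4 groups. The authors deposited RPKM values and raw read counts for each gene, per the file headers. The polysomal reads deposited by the authors are an estimated count, not whole for 20.4% of values in light, and how they were made is not stated; they were used unrounded, as no count test was run. The authors also deposited splicing tables with reads and a percent of reads for each event. The submitters' processing notes name TAIR 10; the sources used here do not give the aligner, the counter or the strand.

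Here the log2 ratio of polysomal over total RPKM (each plus 1) was computed where the light libraries averaged 1 RPKM or more, and centred in 7 length classes. No test was possible with 1 library a side, so genes past 2-fold were counted. Intervals are exact binomial at 95% (Wilson for intron percents). Named genes have a symbol, a mean of at least 10 RPKM and 30 reads in each light library, with exceptions stated. They were taken from the 2 highest and 2 lowest of each class and from the ends and middle of the lists. Not all of these are named, and some lists have no member named. Members and lists were chosen with earlier results of these data known. Symbols and positions are from RefSeq (TAIR10.1). Gene lists were matched by locus, symbol or product, and 7 loci that only share a symbol were removed. Python 3.11.15, pandas 2.3.3 and scipy 1.17.1 were used. The class centring was run on reads simulated from the observed class medians with counting error only. That checks the calculation and cannot show whether the classes suit the data. A microarray of the study was not used here.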

Additional observations from a re-analysis of the deposited data

Results flagged for a closer look

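Chosen by their values, 7 genes had a relative read ratio at least 2-fold above the length class in 1 condition and at least 2-fold below it in the other, and the difference was not tested. UBQ6, a ubiquitin fused to a ribosomal protein, stood at -7.00 in light, with 4458 reads in total and 0 in polysomal mRNA, and above its class in darkness, with 2376 and 14600.5 reads. At a floor of 3 reads it was, in light, at least 995-fold lower. AT2G28671 stood at -5.80 and 1.74, with 12936 and 0 reads in light, at least 2888-fold lower. Both overlap another gene, as do 7 of the 8 tested genes listed at 0 polysomal reads in light. The bounds of UBQ6 and AT2G28671 hold only if 0 is a sampled count, and how shared reads were assigned is not stated. AT3G13700 was at 2.68 in light (1 read in total, 346 in polysomal mRNA) and -1.98 in darkness (779 and 0 reads), and it overlaps another gene. GER1, a germin-like protein, was at 1.54 in light, with 97.2 and 520.4 RPKM, and -1.05 in darkness, with 4.82 and 4.75 RPKM; it overlaps another gene. AT5G50562 was at -1.23 and 1.23, AT1G53903 at -1.11 and 2.34, each with 1 total read in darkness, and AT5G50562 overlaps another gene. ATMG00030 was at -1.62 and 1.08, but at -0.69 in light on RPKM. What these values come from was not tested.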

How the results depend on the processing

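With 1 library a side, no replicate could be left out. No paired analysis was possible because each group has 1 library and no test was run. Adding 5 in place of 1 RPKM left 1729 genes at least 2-fold lower and 621 at least 2-fold below their class, against 3773 and 1260, and centring on genes of at least 5 RPKM left 2322 lower. Under the other alternatives run the counts of genes were within 1.5 times of those reported: 1527 to 3077 higher, 2621 to 4837 lower, 1028 to 1828 above and 870 to 1717 below their class. That centring also turned the split, from fewer genes higher than lower to more. No list's median past 2-fold changed sign under the alternatives run. Single genes were checked under part of the alternatives, for class ends and list members meeting the RPKM and read limits for naming. None of their relative ratios past 2-fold changed sign, and other genes named here were not checked. Leaving out genes whose polysomal RPKM rests on under 80% of the listed length, an alternative added after seeing the data, gave 1113 above and 1022 below. Retained introns were lower in polysomal mRNA in 2888 of 3946 events with at least 20 reads and in 2422 of 3293 with 1 event a gene. Of list medians, 810 values under alternatives stayed within 1.5 times of the reported ones and 16 moved. For the single genes checked, 738 values stayed within the counting interval and 2274 lay outside it. Genes with few polysomal reads, such as most microRNA loci, are limited by counting error.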
